A study of Mus musculus with 24 samples.

Results

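Complement is a cascade of plasma and tissue proteins that marks cells, debris and synapses for removal. In the classical pathway the recognition molecule C1q, assembled from A, B and C chains, binds its target and activates the C1r and C1s proteases, which cleave C4 and C2, and the enzyme formed in this way cleaves C3. C3 fragments coat the target, and the small fragments C3a and C5a act on the receptors C3aR and C5aR. In the brain, microglia are the main source of C1q, astrocytes can make C3 and C4, and complement proteins are known for tagging synapses for engulfment by microglia. Described here are 9 mouse genes of this system, a list of symbols drawn up with earlier results of these data known, of 18647 genes in the count table: the 3 C1q chain genes C1qa, C1qb and C1qc, the components C4b and C3, the anaphylatoxin receptors C3ar1 (for C3a) and C5ar1 (for C5a), and the inhibitors Serping1 (C1 inhibitor, which blocks the C1r and C1s proteases) and Cd55 (decay accelerating factor, a membrane protein that takes apart the enzymes that cleave C3). All 9 passed the filter on low counts.

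RNA came from hippocampal CA1 tissue, cut out under a microscope from brain slices of C57Bl/6N mice aged at least 60 days. Mice received 1 mg/kg scopolamine methyl nitrate and, 20 min later, 335 mg/kg pilocarpine, which led to status epilepticus (SE), a prolonged seizure, and 4 mg/kg diazepam was injected 40 min after SE onset. Controls (Ctr) were handled in the same way, with scopolamine and diazepam, but with saline in place of pilocarpine. The 15 SE libraries came from 5 time points (6, 12, 24, 36 and 72 h) and the 9 Ctr libraries from 12, 36 and 72 h, with 3 libraries in each of the 8 groups, and among mice given pilocarpine only those with SE were used, so effects of the drug and of the seizure cannot be told apart. The labels do not say that each library is a single animal, and p-values measure the spread between these libraries. Library totals ranged from 2663936 to 30133731 counts, and the lowest was that of Ctr 72 h replicate 3.

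Levels are read counts scaled to library depth (CPM) after TMM scaling and are compared here within a gene. Fold changes are log2 values (log2FC) from edgeR's quasi-likelihood model with 1 factor of unwanted variation (RUVr), given with their standard error (s.e.), and p-values were adjusted by the Benjamini-Hochberg method over 18153 genes. To be called higher or lower, a gene needed an adjusted p no larger than 0.05 and a log2FC of 0.66 or more in size, raised to 1 between SE time points. SE 6 h and SE 24 h have no control of their own time and were set against the mean of the 3 Ctr groups, so these comparisons share their controls. In 6 libraries (SE 6 h replicate 3, SE 12 h replicate 1, SE 36 h replicate 3, SE 72 h replicates 1 and 2 and Ctr 72 h replicate 2), the summed level of 11 sensory ganglion markers such as Scn10a and Prph, which CA1 neurons are not known to express, was 333 to 1712 CPM against 5.19 to 74.2 CPM in the other 18, and calls of the 9 genes against the controls that change without them are given below. The CA1 markers Fibcd1, Mpped1 and Wfs1 were detected in every library, at no less than 36.7 CPM.

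The C1q genes lie side by side on chromosome 4 and are all read from the minus strand, C1qa at chr4:136623223-136626161, C1qc at chr4:136616466-136620376 and C1qb at chr4:136606009-136613511 (GRCm39). C3 is at chr17:57510964-57535155 and C4b at chr17:34947354-34962912, also on the minus strand. The receptor genes are C3ar1 at chr6:122823393-122833122 and C5ar1 at chr7:15980668-15993465, and the inhibitors are Serping1 at chr2:84595705-84620873 and Cd55 at chr1:130366469-130390926, again all on the minus strand. The 250 bases upstream of the annotated starts of the 3 C1q genes, whose levels moved most alike, and of C3, which had the largest fold change, are shown 5′ to 3′ on the strand of the gene (GRCm39, GENCODE annotation). Capitals in the C1q sequences mark matches to GAGGAA on either strand, a core sequence of the myeloid factor PU.1, and capitals in the C3 sequence mark matches to an NF-kB type sequence (GGGA and CC with any 4 bases between them) and to TTGCNNAA, a C/EBP type sequence.
C1qa: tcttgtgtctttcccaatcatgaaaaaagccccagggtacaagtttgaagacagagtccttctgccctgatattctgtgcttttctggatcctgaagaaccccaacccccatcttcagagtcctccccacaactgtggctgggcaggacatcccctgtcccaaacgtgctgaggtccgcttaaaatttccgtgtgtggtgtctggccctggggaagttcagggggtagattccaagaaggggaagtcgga
C1qb: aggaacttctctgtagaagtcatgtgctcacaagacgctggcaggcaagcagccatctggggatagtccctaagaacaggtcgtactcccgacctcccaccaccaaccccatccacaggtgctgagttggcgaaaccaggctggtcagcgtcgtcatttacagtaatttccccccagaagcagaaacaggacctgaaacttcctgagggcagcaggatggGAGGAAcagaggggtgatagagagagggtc
C1qc: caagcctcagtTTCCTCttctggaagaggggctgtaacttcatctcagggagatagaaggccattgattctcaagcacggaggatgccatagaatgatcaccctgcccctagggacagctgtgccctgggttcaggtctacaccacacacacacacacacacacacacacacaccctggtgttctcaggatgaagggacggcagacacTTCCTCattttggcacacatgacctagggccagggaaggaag
C3: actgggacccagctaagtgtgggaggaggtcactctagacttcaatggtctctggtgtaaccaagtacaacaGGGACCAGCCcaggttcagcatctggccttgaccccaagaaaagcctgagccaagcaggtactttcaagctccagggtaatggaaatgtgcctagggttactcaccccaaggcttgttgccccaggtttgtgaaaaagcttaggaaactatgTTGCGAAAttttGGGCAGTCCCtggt

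GAGGAA was found in the windows of C1qb, at -30 to -25 from the start, of C1qc, at -42 to -37 and at -239 to -234, and of Serping1, that is in 3 of the 9 genes, against 23.2% of 15431 promoters of the same length. The window of C1qa held none. Starts were those of the canonical transcript of each gene. For Serping1 (chr2:84605788) and C5ar1 (chr7:15993263) this start lies inside the gene span given above. The NF-kB type sequence was found in C1qb, C4b and C3 and in 20.3% of all promoters, with the C3 matches at -178 to -169 and -14 to -5. TTGCNNAA was found at -26 to -19 of C3 alone among the 9 genes, and in 8.15% of all promoters. TTCNNNGAA, a STAT type sequence, was found in C1qa and in 6.66% of promoters, an interferon regulatory factor type sequence (GAAA on both sides of any 2 bases) in none of the 9 genes and in 3.05% of promoters, and TATAAA in C3ar1 and in 7.71% of promoters. Both strands were searched, the match in C4b meets the pattern on both, and a match describes the letters only.

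Of the 9 genes, the receptor genes C3ar1 and C5ar1 and, with smaller changes, C3, C4b and Serping1 were called higher at 6 h. C1qb was called higher from 12 h on and all 3 C1q genes from 24 h on, with their highest levels at 72 h. Cd55 did not pass at 6, 12, 36 or 72 h. Of the 9 genes, 5 were called higher at 6 h (background 21% of all genes called in either direction, 14.9% higher), 6 at 12 h (24.8%, 13.7% higher), 8 at 24 h with 1 lower (23.6%, 14.2% higher and 9.35% lower), 8 at 36 h (21.4%, 12.6% higher) and 8 at 72 h (18%, 13.7% higher). In CPM, all SE libraries lay above all libraries of the control groups used for 4 of the 9 genes in SE 6 h (12.9% of all genes), 6 in SE 12 h (24.5%), 6 in SE 24 h (13.6%), 8 in SE 36 h (25.8%) and 7 in SE 72 h (19.4%). The median log2FC of the 9 genes was 1.22 in the 6 h comparison, 1.56 (12 h), 1.73 (24 h), 2.41 (36 h) and 3.31 (72 h), while the median over all genes tested lay between -0.00 and 0.06.

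**Figure D1:**
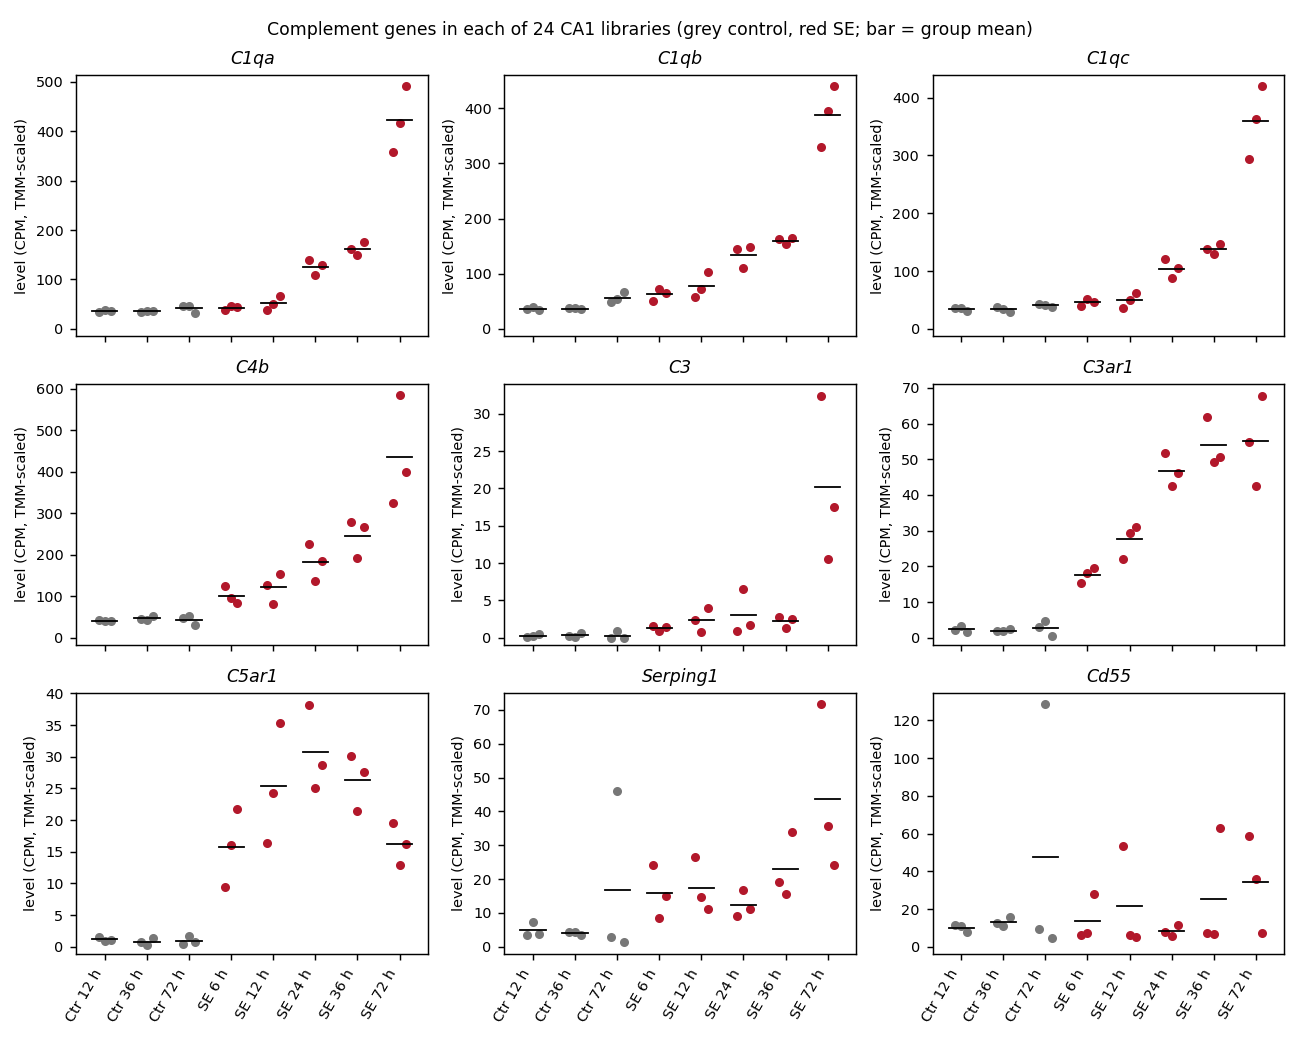
Level of each of the 9 complement genes (y axis, TMM-scaled CPM, linear, a scale of its own in each panel) in the 24 libraries by group (x axis); grey points are Ctr libraries, red points SE libraries and bars group means of 3. C1qa reached 358 to 492 CPM at 72 h, C5ar1 was highest on average at 24 h (30.7 CPM), and the highest Cd55 value, 129 CPM, was in a control library.

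The C1q genes, which encode the recognition molecule, were not called at 6 h. C1qb alone was called at 12 h, and all 3 were called from 24 h on. In the 9 Ctr libraries, C1qa lay at 33.6, 38.8 and 35.1 CPM at 12 h, 34.8, 36.3 and 36.6 CPM at 36 h and 45.8, 46.6 and 32.2 CPM at 72 h. After SE, it lay at 37.5, 45.9 and 43.9 CPM at 6 h, 38.1, 50.6 and 66.5 CPM at 12 h, 140, 109 and 128 CPM at 24 h, 161, 150 and 175 CPM at 36 h and 358, 416 and 492 CPM at 72 h. The SE libraries overlapped the controls at 6 and 12 h and lay above all of them from 24 h on. The log2FC of C1qa was 0.16 (s.e. 0.14, adjusted p = 0.375) at 6 h, 0.52 (s.e. 0.17, adjusted p = 0.0208) at 12 h, 1.73 (s.e. 0.13, adjusted p = 1.5e-09) at 24 h, 2.17 (s.e. 0.17, adjusted p = 1.73e-08) at 36 h and 3.32 (s.e. 0.18, adjusted p = 2.28e-10) at 72 h. The value at 12 h is below the fold threshold, but C1qa was called there without SE 12 h replicate 1 (0.70, adjusted p = 0.00212) and without the 6 libraries with high ganglion markers (0.69, adjusted p = 0.000853).

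C1qc had nearly the same course, with 29.1 to 43.3 CPM in the controls, 39.8 to 52.4 CPM at 6 h, 35.6 to 61.4 CPM at 12 h, 88.2 to 120 CPM at 24 h, 130 to 147 CPM at 36 h and 295 to 421 CPM at 72 h. Its log2FC was 0.51 (s.e. 0.17, adjusted p = 0.0219) at 12 h, below the fold threshold, 2.03 (s.e. 0.17) at 36 h and 3.12 (s.e. 0.18, adjusted p = 3.49e-10) at 72 h. At 12 h C1qc was called without SE 12 h replicate 1 (0.71, adjusted p = 0.00211) and without the 6 libraries (0.70, adjusted p = 0.000903).

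C1qb was called at 12 h with all libraries in the fit, with a log2FC of 1.05 (s.e. 0.17, adjusted p = 0.000104). It lay at 35.7, 40.1 and 34.7 CPM in Ctr 12 h, 37.1, 37.2 and 36.2 CPM in Ctr 36 h and 48.4, 53.2 and 66.0 CPM in Ctr 72 h. In the SE libraries, it was at 51.3, 72.5 and 64.1 CPM at 6 h, 57.1, 72.3 and 103 CPM at 12 h, 144, 111 and 148 CPM at 24 h, 162, 153 and 164 CPM at 36 h and 329, 394 and 441 CPM at 72 h. All 3 libraries of SE 12 h were above Ctr 12 h. At 6 h its log2FC was 0.57 (s.e. 0.14, adjusted p = 0.00276), below the size needed for a call, and without SE 6 h replicate 1 it was called (0.69, adjusted p = 0.00137). At 36 and 72 h the log2FC was 2.11 (s.e. 0.18) and 2.81 (s.e. 0.18), both called.

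Because the chains are combined in a fixed ratio in the protein, the ratio of their read counts within a library was compared as well. The ratio of C1qb to C1qa was 0.987 to 1.06 in Ctr 12 h and 0.989 to 1.07 in Ctr 36 h, 1.37 to 1.58 in SE 6 h and 1.43 to 1.54 in SE 12 h, and 1.02 to 1.15 in SE 24 h, 0.940 to 1.02 in SE 36 h and 0.896 to 0.947 in SE 72 h. SE 12 h did not overlap Ctr 12 h, with a difference of the means of 0.46 (two-sided exact permutation test, p = 0.1, the smallest p that 3 against 3 libraries allow; adjusted p = 0.167 over the 20 ratio tests made). The ratio of C1qc to C1qa in SE 12 h (mean 0.950) and Ctr 12 h (mean 0.954) differed by -0.0040 (exact permutation p = 1). In Ctr 72 h the ratio of C1qb to C1qa was 1.06, 1.14 and 2.05, and the highest value was in replicate 3, where it rests on 176 and 86 counts. In the annotation an exon on the opposite strand, of Gm69251, overlaps both C1qb and C1qc, as exons of Gm65055 and Gm65552 do C4b and C3, and the counts do not tell the strands apart.

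Between consecutive SE time points, C1q genes were called higher from 12 to 24 h and from 36 to 72 h. The interval from 36 to 72 h is longer than those before it, with the same threshold. The called steps are therefore not rates. From 24 to 36 h the log2FC was 0.36 (C1qa), 0.40 (C1qc) and 0.24 (C1qb), not called. From SE 12 h to SE 24 h, C1qa (log2FC 1.29, s.e. 0.17, adjusted p = 0.000216) and C1qc (1.11, s.e. 0.17, adjusted p = 0.00062) were called higher, 2 of the 9 genes against a background of 2.91%, while C1qb had a log2FC of 0.82, below the threshold of 1. Without SE 12 h replicate 1 the log2FC of C1qc was 0.91, and without SE 24 h replicate 1 it was 0.996, in both cases below the threshold. From SE 36 h to SE 72 h, C1qa (1.38, s.e. 0.17), C1qb (1.28, s.e. 0.17), C1qc (1.38, s.e. 0.16) and C3 were called higher, 4 of the 9 genes against 3.93% of all genes. None of the 9 was called between SE 6 h and SE 12 h (1.26% of all genes called) or between SE 24 h and SE 36 h (0.529% called). DESeq2 and limma-voom also called 0 in both. At an unadjusted p under 0.05 edgeR found 2 and 4 of the 9. The share of all genes at that threshold is not given, so these counts are not read as a result about the 9 genes.

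The size of the SE effect itself differed between time points for the C1q genes and C4b. The effect at 72 h exceeded that at 12 h by a log2FC of 2.80 (s.e. 0.24, adjusted p = 7.04e-07) for C1qa, 2.61 (s.e. 0.24) for C1qc, 1.76 (s.e. 0.25) for C1qb and 1.74 (s.e. 0.35, adjusted p = 0.00213) for C4b, 4 of the 9 genes against a background of 17.4%. The effect at 36 h exceeded that at 12 h for C1qa, C1qc and C1qb (1.65, 1.53 and 1.06; 3 of 9 against 3.01%), and that at 72 h exceeded that at 36 h for C1qa and C1qc (1.15 and 1.09; 2 of 9 against 4.13%). For C3ar1 and C5ar1 the effect at 72 h less that at 12 h was 0.56 (s.e. 0.45, adjusted p = 0.406) and -0.28 (s.e. 0.72, adjusted p = 0.823).

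**Figure D2:**
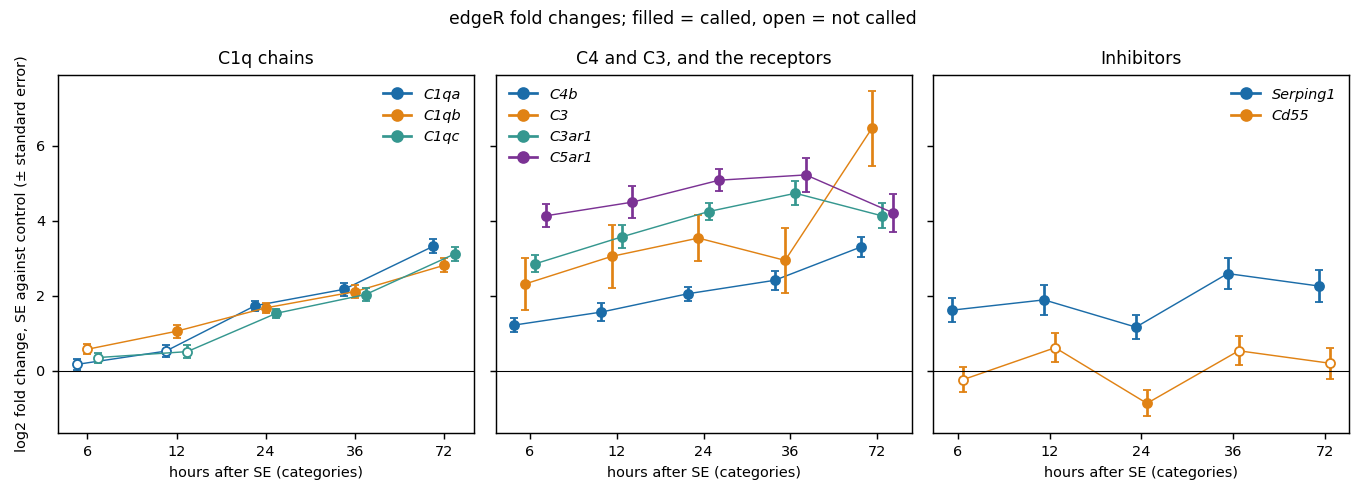
Log2 fold change of SE against Ctr (y axis, ± standard error of the edgeR fit) by hours after SE (x axis, categories not to scale), with the C1q genes on the left, C4b, C3 and the receptor genes in the middle and the inhibitors on the right; filled points were called and open points were not, and 6 and 24 h were set against the mean of the 3 Ctr groups. C1qa rises from 0.16 to 3.32, whereas C5ar1 starts at 4.13 and ends at 4.22.

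Microglial markers in sum were higher together with the C1q genes at 36 and 72 h, but not at 6 and 12 h. The summed level of 14 microglial markers was 394 to 512 CPM in the controls, 303 to 336 CPM at 6 h, 321 to 424 CPM at 12 h, 512 to 676 CPM at 24 h, 685 to 795 CPM at 36 h and 1515 to 2268 CPM at 72 h, and 2 of the 14 were called higher and 4 lower at 12 h, 7 and 2 at 36 h, and 13 and 0 at 72 h. Among them P2ry12, a receptor of resting microglia, was at 2.84 to 4.16 CPM in SE 6 h, against 30.4 to 58.0 CPM in the controls. The resting-state markers of the list summed to 72.3 to 100 CPM in SE 6 h, against 162 to 245 CPM in the controls. The broadly expressed markers, named next, summed to 203 to 255 CPM in SE 6 h, against 217 to 269 CPM in the controls. The summed level of the 3 C1q genes divided by that of the 7 broadly expressed microglial markers (Csf1r, Aif1, Ctss, Trem2, Tyrobp, Cd68 and Laptm5) was 0.408 to 0.588 in the controls, 0.606 to 0.669 in SE 6 h, 0.634 to 0.786 in SE 12 h, 0.952 to 1.00 in SE 24 h, 0.998 to 1.06 in SE 36 h and 0.928 to 0.982 in SE 72 h. Relative to these markers the C1q level was thus above all controls at every time after SE, by a small margin at 6 h, and its range at 72 h lay below that at 36 h. Neuron markers, summed over 10 genes, were at 6977 to 8595 CPM in the controls and 4446 to 5030 CPM at 72 h, where 4 of the 10 were called lower and none higher, and their part in the levels of the 9 genes was not tested. In bulk tissue a change in the number of cells of a type and a change in RNA per cell cannot be told apart.

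C4b and C3 encode the components that are cleaved next. C4b lay at 42.9, 41.5 and 39.6 CPM in Ctr 12 h, 44.7, 42.5 and 53.0 CPM in Ctr 36 h and 46.6, 53.5 and 30.4 CPM in Ctr 72 h. The levels after SE were 124, 95.7 and 84.8 CPM at 6 h, 128, 81.1 and 155 CPM at 12 h, 227, 137 and 185 CPM at 24 h, 278, 193 and 267 CPM at 36 h and 325, 585 and 400 CPM at 72 h. Every SE library was above every control. The log2FC was 1.22 (s.e. 0.19, adjusted p = 5.41e-05) at 6 h, 1.56 (s.e. 0.25, adjusted p = 7.49e-05) at 12 h, 2.05 (s.e. 0.18) at 24 h, 2.41 (s.e. 0.26) at 36 h and 3.31 (s.e. 0.27, adjusted p = 2.59e-08) at 72 h, and no step between consecutive SE time points was called.

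C4a, a near-identical neighbour of C4b that can share its reads, had another course. It was at 13.4 to 20.6 CPM in SE 6 h and 11.2 to 22.1 CPM in SE 12 h against 2.56 to 3.69 CPM in Ctr 12 h, and its log2FC was 2.23 (s.e. 0.28, adjusted p = 5.1e-06) at 12 h, but 0.20 (s.e. 0.27, adjusted p = 0.619) at 36 h and 0.36 (s.e. 0.30, adjusted p = 0.4) at 72 h. By its default, htseq-count leaves out reads that align to more than a single place, so both levels rest on the remaining reads and are uncertain to that extent.

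C3, the central component, was close to the limit of detection in the controls and had the largest fold change of the 9 genes at 72 h. It had 1, 3 and 12 counts in Ctr 12 h, 4, 1 and 8 in Ctr 36 h and 0, 5 and 0 in Ctr 72 h, that is 0 to 0.853 CPM. Following SE, the level was 1.60, 0.98 and 1.40 CPM at 6 h, 2.44, 0.796 and 3.98 CPM at 12 h, 0.850, 6.53 and 1.68 CPM at 24 h, 2.82, 1.34 and 2.51 CPM at 36 h and 32.4, 10.6 and 17.5 CPM at 72 h. Only SE 24 h overlapped its controls, by its replicate 1, and the 3 libraries of SE 72 h were the 3 highest of all. The log2FC was 2.31 (s.e. 0.70, adjusted p = 0.0128) at 6 h, 3.05 (s.e. 0.84, adjusted p = 0.0072) at 12 h, 3.54 (s.e. 0.62, adjusted p = 0.000134) at 24 h, 2.94 (s.e. 0.86, adjusted p = 0.0126) at 36 h and 6.47 (s.e. 1.01, adjusted p = 7.16e-05) at 72 h.

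The step of C3 from 36 to 72 h was called (log2FC 3.09, s.e. 0.70, adjusted p = 0.00811). It was lost without SE 36 h replicate 2 (2.82), and the call at 36 h was lost without Ctr 36 h replicate 2 (2.34). Without the 6 libraries with high ganglion markers both calls were lost as well (3.08 and 2.75), while no call of the C1q genes, C4b, C3ar1 or C5ar1 against the controls was lost. Without Ctr 72 h replicate 2, the remaining controls of that time held 0 counts. Against a floor of 3 counts over those controls (0.207 CPM) the mean at 72 h of 20.2 CPM was 97.7-fold higher. With all controls of that time the ratio of the mean CPM was 71.0, so 97.7 is no lower limit for the full data. The effect of SE on C3 at 72 h less that at 12 h was 3.42 (s.e. 1.43, adjusted p = 0.0941), which did not pass, but passed in DESeq2 (3.47) and without SE 12 h replicate 3 (4.27). Astrocyte markers, summed over 8 genes, were at 4653 to 5919 CPM in the controls and 12693 to 14302 CPM at 72 h, and their part in the C3 and C4b values was not tested.

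The receptor genes had the largest fold changes of the 9 genes up to 36 h. C3ar1 lay at 2.27, 3.32 and 1.55 CPM in Ctr 12 h, 1.8, 1.93 and 2.38 CPM in Ctr 36 h and 3.12, 4.77 and 0.375 CPM in Ctr 72 h. After SE, the values were 15.3, 18.2 and 19.7 CPM at 6 h, 22.2, 29.3 and 31.1 CPM at 12 h, 51.7, 42.5 and 46.2 CPM at 24 h, 61.9, 49.3 and 50.6 CPM at 36 h and 54.8, 42.4 and 67.8 CPM at 72 h. No SE library overlapped a control. The log2FC was 2.85 (s.e. 0.22, adjusted p = 9.98e-09) at 6 h, 3.57 (s.e. 0.31, adjusted p = 9.46e-08) at 12 h, 4.25 (s.e. 0.21, adjusted p = 6.08e-12) at 24 h, 4.74 (s.e. 0.32, adjusted p = 2.56e-09) at 36 h and 4.13 (s.e. 0.33, adjusted p = 2.31e-08) at 72 h, and from 36 to 72 h the difference was 0.03 (s.e. 0.26, adjusted p = 0.962).

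C5ar1 lay at 1.51, 0.899 and 1.12 CPM in Ctr 12 h, 0.719, 0.261 and 1.31 CPM in Ctr 36 h and 0.422, 1.71 and 0.750 CPM in Ctr 72 h, the last from 2 counts. The SE libraries held 9.43, 16.1 and 21.7 CPM at 6 h, 16.5, 24.3 and 35.3 CPM at 12 h, 38.2, 25 and 28.7 CPM at 24 h, 30.2, 21.4 and 27.6 CPM at 36 h and 19.5, 12.9 and 16.2 CPM at 72 h. All SE libraries were above all controls, and the range at 72 h lay below that at 36 h. The log2FC was 4.13 (s.e. 0.31, adjusted p = 5.47e-09) at 6 h, 4.50 (s.e. 0.43, adjusted p = 2.29e-07) at 12 h, 5.09 (s.e. 0.30, adjusted p = 6.41e-11) at 24 h, 5.23 (s.e. 0.46, adjusted p = 4.59e-08) at 36 h and 4.22 (s.e. 0.51, adjusted p = 3.42e-06) at 72 h. The difference from SE 36 h to SE 72 h was -0.72 (s.e. 0.34, adjusted p = 0.199) and was not called.

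The receptor genes were also compared within each library. The ratio of C5ar1 to C3ar1 read counts was 0.618 to 1.11 in SE 6 h, 0.742 to 1.13 in SE 12 h, 0.590 to 0.739 in SE 24 h, 0.433 to 0.546 in SE 36 h and 0.239 to 0.356 in SE 72 h. SE 12 h did not overlap SE 24 h (difference of the means 0.25, two-sided exact permutation p = 0.1, adjusted p = 0.167 over the 20 ratio tests). In the controls the ratio ranged from 0.135 to 2.00, with as few as 1 and 2 counts in Ctr 72 h replicate 3.

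The rise of C3ar1 and C5ar1 at 6 and 12 h was not accompanied by a rise of the summed level of all listed microglial markers, given above with the calls at 12 h. The 7 broadly expressed markers alone summed to 206 to 302 CPM in SE 12 h, against 217 to 269 CPM in the controls. C3ar1 divided by the 7 broadly expressed microglial markers was 0.00162 to 0.0178 in the controls, 0.0713 to 0.0772 in SE 6 h, 0.103 to 0.133 in SE 12 h, 0.116 to 0.135 in SE 24 h, 0.106 to 0.134 in SE 36 h and 0.0336 to 0.0548 in SE 72 h. The same ratio for C5ar1 was 0.0465 to 0.0854 in SE 6 h and 0.0102 to 0.0195 in SE 72 h. Both ratios at 72 h were above the controls and below those of all earlier SE time points. C5aR is also found on neutrophils and monocytes, and of 12 markers of infiltrating leukocytes 5 were in the table (Ccr2, S100a8, S100a9, Chil3 and Cd79a), with sums of 0 to 1.07 CPM in Ctr 12 h and Ctr 36 h, 0.506 to 17.4 CPM in Ctr 72 h, 1.18 to 5.01 CPM in SE 6 h, 1.86 to 5.96 CPM in SE 12 h, 0.743 to 2.73 CPM in SE 24 h, 0.946 to 10.0 CPM in SE 36 h and 1.71 to 50.9 CPM in SE 72 h. Their part in the C5ar1 values was not tested.

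**Figure D3:**
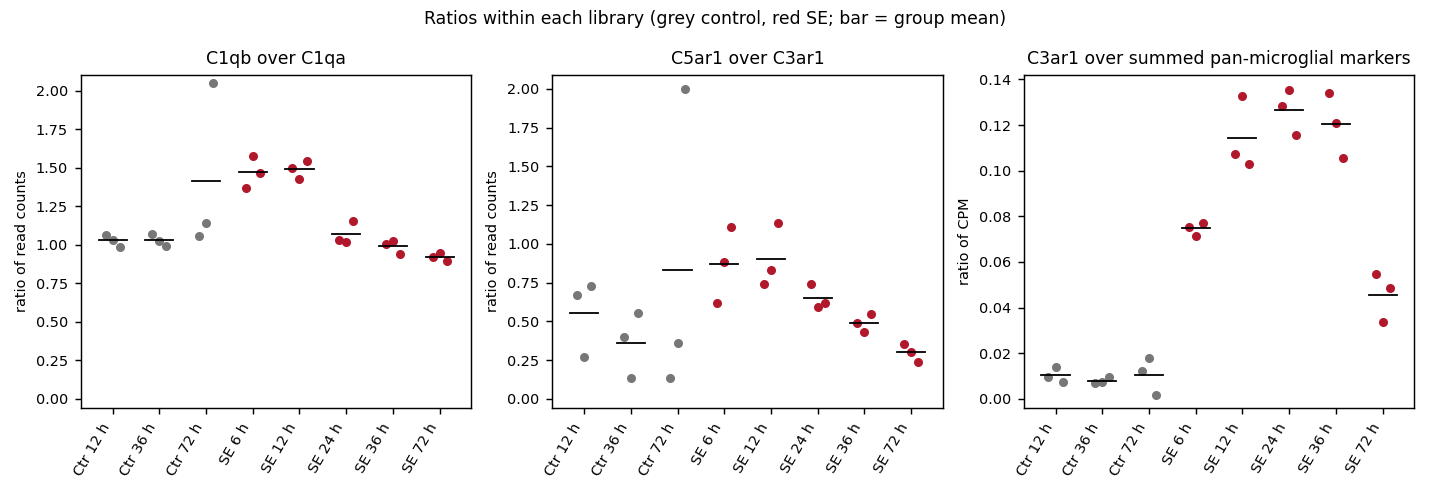
Ratios within each library by group (x axis), as read counts of C1qb over C1qa (left), read counts of C5ar1 over C3ar1 (middle) and CPM of C3ar1 over the summed CPM of 7 microglial markers (right); grey points are Ctr, red points SE and bars group means of 3. The left ratio is 1.37 to 1.58 at 6 h and 0.896 to 0.947 at 72 h after SE. In the left and middle panels the high control points at 72 h come from replicate 3, the library with the fewest counts.

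Of the inhibitors, Serping1 was called higher at all 5 time points. It lay at 3.41, 7.40 and 3.91 CPM in Ctr 12 h, 4.32, 4.44 and 3.37 CPM in Ctr 36 h and 2.95, 46.0 and 1.5 CPM in Ctr 72 h. In the libraries after SE, it was found at 24.1, 8.42 and 15 CPM at 6 h, 26.4, 14.7 and 11.2 CPM at 12 h, 9.24, 16.7 and 11.1 CPM at 24 h, 19.3, 15.7 and 33.9 CPM at 36 h and 71.6, 35.6 and 24.2 CPM at 72 h. The SE libraries were above all controls except Ctr 72 h replicate 2, the library with the highest summed level of ganglion markers. The log2FC was 1.61 (s.e. 0.31, adjusted p = 0.000432) at 6 h, 1.89 (s.e. 0.41, adjusted p = 0.00118) at 12 h, 1.16 (s.e. 0.31, adjusted p = 0.00589) at 24 h, 2.59 (s.e. 0.42, adjusted p = 8.23e-05) at 36 h and 2.26 (s.e. 0.43, adjusted p = 0.000585) at 72 h.

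Serping1 moved with the ganglion markers as well as with SE. In the 6 libraries with high ganglion markers it was at 15 to 71.6 CPM, in the other SE libraries at 8.42 to 24.2 CPM and in the other controls at 1.5 to 7.40 CPM, so that SE and Ctr did not overlap among those 18. Without the 6 libraries the log2FC was 2.04 (6 h), 1.41 (12 h), 1.74 (24 h), 2.10 (36 h) and 3.24 (72 h), all called, with a single library left in SE 72 h that is assumed to vary like the others. When the RUVr factor was replaced by a score of the ganglion markers, the call at 12 h was lost (1.17, adjusted p = 0.128). At 72 h the log2FC was 4.07 without Ctr 72 h replicate 2 alone and 1.44 (adjusted p = 0.0521), no longer called, without Ctr 72 h replicate 1. The call at 24 h was lost when either Ctr 72 h replicate 1 (0.89) or SE 24 h replicate 2 (0.85) was left out. Without the RUVr factor the call was kept at 36 h (2.50) and lost at 6 h (1.18, adjusted p = 0.108), 12 h (1.83, adjusted p = 0.0604), 24 h (0.83, adjusted p = 0.269) and 72 h (1.35, adjusted p = 0.194). With label-number ranges in its place the same 4 calls were lost. Fibroblast markers, summed over 7 genes such as Col1a1 and Dcn, were highest in Ctr 72 h replicate 2, at 489 CPM against 138 to 290 CPM in the other controls, and were at 332 CPM in SE 36 h replicate 3 and 356 CPM in SE 72 h replicate 1, the highest of the SE libraries. Their part in the Serping1 values was not tested.

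Cd55, the membrane inhibitor, moved with the ganglion markers. It lay at 11.6, 10.9 and 7.85 CPM in Ctr 12 h, 12.4, 10.9 and 16 CPM in Ctr 36 h and 9.71, 129 and 4.50 CPM in Ctr 72 h. The values after SE were 6.47, 7.15 and 27.8 CPM at 6 h, 53.5, 6.46 and 5.26 CPM at 12 h, 7.96, 5.62 and 11.4 CPM at 24 h, 7.41, 6.54 and 62.8 CPM at 36 h and 59.0, 36.0 and 7.41 CPM at 72 h. The 6 libraries with high ganglion markers were the 6 highest, at 27.8 to 129 CPM against 4.50 to 16 CPM in the other 18, and SE and Ctr overlapped at every time point. The log2FC was -0.24 (s.e. 0.33, adjusted p = 0.601) at 6 h, 0.61 (s.e. 0.39, adjusted p = 0.233) at 12 h, -0.88 (s.e. 0.35, adjusted p = 0.049) at 24 h, 0.53 (s.e. 0.39, adjusted p = 0.331) at 36 h and 0.19 (s.e. 0.42, adjusted p = 0.78) at 72 h.

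Without the 6 libraries, the log2FC of Cd55 was -0.57 at 6 h, -0.74 (adjusted p = 0.0643) at 12 h, -0.32 at 24 h, -0.90 (adjusted p = 0.0351) at 36 h and -0.07 at 72 h, so that it was called lower at 36 h and no longer at 24 h. Among the other 18 libraries the SE levels were 5.26 to 11.4 CPM (median 6.85, n = 10) and the control levels 4.50 to 16 CPM (median 10.9, n = 8), which overlap. Without Ctr 72 h replicate 2 alone it was called higher at 72 h (1.87, adjusted p = 0.0118), with 2 high SE libraries left against no high control. An exon of Gm16083 on the opposite strand overlaps Cd55.

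**Figure D4:**
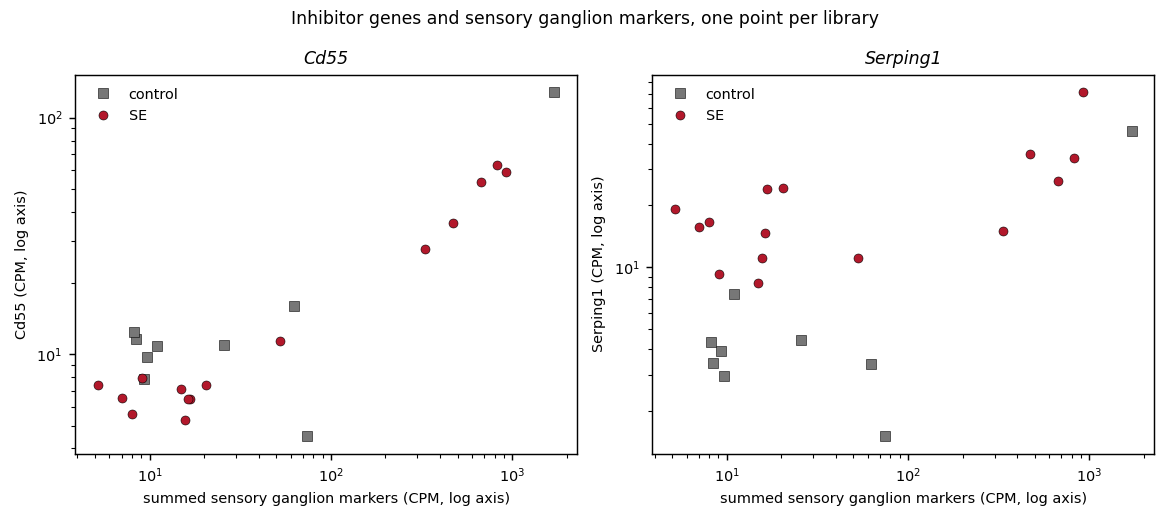
Level of Cd55 (left) and Serping1 (right) in CPM (y axis, log) against the summed CPM of 11 sensory ganglion markers (x axis, log), with 1 point per library, grey squares for Ctr and red circles for SE. The 6 libraries at 333 CPM or more on the x axis are the 6 highest for Cd55, while for Serping1 the SE points lie above the control points at low marker levels.

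Between control groups, none of the 9 genes was called by edgeR. Of all genes, 0%, 1.92% and 0.948% were called for Ctr 36 h against Ctr 12 h, Ctr 72 h against Ctr 36 h and Ctr 72 h against Ctr 12 h. At an unadjusted p under 0.05 edgeR found 0, 3 and 2 of the 9. The share of all genes at that threshold is not given, so these counts are not read as a result about the 9 genes. DESeq2 called 0, 0 and 1, and limma-voom none. The largest log2FC among these was that of Cd55 in Ctr 72 h against Ctr 12 h, 1.31 (s.e. 0.43, adjusted p = 0.108).

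The courses of the 9 genes were compared by the root mean square difference of their 8 group means of log2 CPM, each centred on its own mean. C1qa and C1qc were closest (0.12), followed by C1qb and C1qc (0.18) and C1qa and C1qb (0.26), and the nearest pair with another gene was C1qb and C4b (0.33). Among 15149 other genes, those most like C1qa were Lgals3bp (0.14), Myo1g (0.14) and Fignl1 (0.20), and those most like C1qb were Ctsd (0.10), Myo1g (0.13) and Parp14 (0.16). For C1qc they were Myo1g (0.10), Ctsd (0.14) and Lgals3bp (0.15), and for C4b Trim30a (0.10), Cd84 (0.13) and Fyb1 (0.14). C3 had no gene as near, the closest being Ly9 (0.44), Gpnmb (0.58) and AU020206 (0.64). For C3ar1 the closest were Ms4a6d (0.28), Serpina3n (0.30) and Gfap (0.31), for C5ar1 Ch25h (0.39), Itga5 (0.40) and Fgl2 (0.40), for Serping1 Fbln5 (0.21), Psd4 (0.27) and Cd53 (0.28), and for Cd55 Slc9a9 (0.13), Aqp9 (0.15) and Acads (0.16). These are likenesses over 8 group means, which share the same libraries. The group means of Cd55 take in the 6 libraries with high ganglion markers, where it was highest, and its likenesses were not compared without them.

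Of 47 other complement genes listed, 33 were in the table and 31 were tested. Of these, 5 were called higher and 2 lower at 12 h, 6 and 3 at 36 h and 7 and 1 at 72 h, with medians of 0.08, 0.06 and 0.38. Of all genes, 24.8%, 21.4% and 18% were called in either direction, and the counts are not read as a result about the list. The 5 largest increases at these times were those of receptors. Itgb2, the beta chain of the C3 fragment receptors CR3 and CR4, was at 3.24 to 8.25 CPM in the controls and 57.5 to 75.1 CPM in SE 72 h, with a log2FC of 1.32 (s.e. 0.25), 2.04 (s.e. 0.25) and 3.61 (s.e. 0.28, adjusted p = 1.15e-08) at 12, 36 and 72 h. Itgam, the alpha chain of CR3, had 0.22 (s.e. 0.26, adjusted p = 0.549), 0.77 (s.e. 0.26, adjusted p = 0.0261) and 3.01 (s.e. 0.29, adjusted p = 1.85e-07). Itgax, the alpha chain of CR4, was called at all 3 times (3.70, 3.18 and 2.81) at levels of at most 4.50 CPM. Cd93, a membrane protein of endothelium and myeloid cells first described as a C1q receptor, was called at 12 h (2.78, s.e. 0.32) and 36 h (2.64, s.e. 0.32) and had 0.56 (s.e. 0.32, adjusted p = 0.214) at 72 h. C5ar2, the other receptor for C5a, was called at 72 h only among the time-matched comparisons (2.51, s.e. 0.57, adjusted p = 0.00258), at levels of at most 4.37 CPM.

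Among the proteases, C1ra, which encodes C1r, was called at 36 h (1.97, s.e. 0.53) and 72 h (2.10, s.e. 0.54), and C1s2 was called lower at 36 h (-3.87, s.e. 0.92, adjusted p = 0.00284) at levels of at most 1.59 CPM. Masp1, a protease of the lectin pathway, was called at 72 h (0.66, s.e. 0.21, adjusted p = 0.0264). Among the regulators, Cd59a, which blocks the membrane attack complex, was called higher at 36 h (0.91, s.e. 0.21) and 72 h (0.80, s.e. 0.22). Cd46, a membrane cofactor for the cleavage of C3b, was called lower at 12, 36 and 72 h (-1.52, -1.22 and -1.38), with 3.63 to 7.53 CPM in the SE libraries against 6.65 to 23.2 CPM in the controls. Susd4, also a membrane regulator, was called lower at 12 h (-0.89, s.e. 0.15), Csmd3 lower at 36 h (-1.36, s.e. 0.27) and Csmd2 higher at 12 h (0.68, s.e. 0.18, adjusted p = 0.00543). Without the 6 libraries with high ganglion markers, 10 of the list were called at 12 h. The share of all genes called in that fit is not given, so this count is not read as a result about the list. A single SE 72 h library is left in that fit, and no count is given for 72 h.

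**Figure D5:**
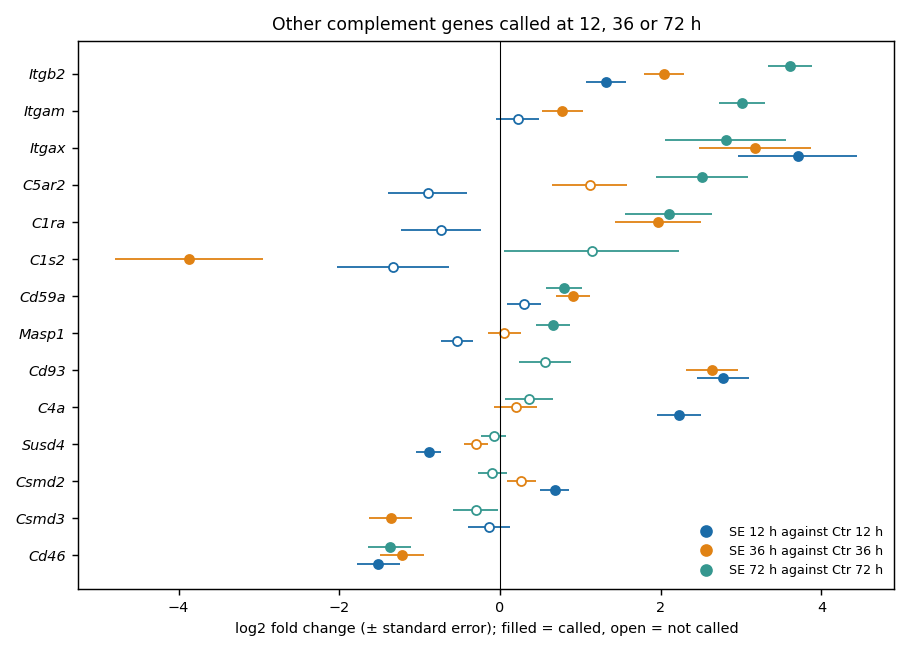
Log2 fold change (x axis, ± standard error of the edgeR fit) of the 14 other complement genes called in at least 1 of the 3 time-matched comparisons (y axis, ordered by the value at 72 h); blue is 12 h, orange 36 h and green 72 h, and filled points were called. Itgb2 and Itgam rise from 12 to 72 h, Cd93 and C4a are highest at 12 h, and Cd46 is below 0 at all 3 times.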

How the data were processed

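Per the labels and the methods of the study, CA1 mRNA libraries (TruSeq RNA v2, paired-end, not stranded) were trimmed with Trim Galore 0.6.6 and aligned with STAR 2.7.8a to GRCm39, and the authors counted reads per gene with HTSeq 0.13.5 without regard to strand and deposited whole-number counts, not normalized. Positions, overlaps and promoters were read from a later GENCODE release of the same build than the one used for counting. Of 18647 genes, 18552 were matched to symbols and 95 were not. With edgeR 4.0.16 in R 4.3.3, counts were TMM-scaled, filtered with filterByExpr (18153 genes) and fitted over all 24 libraries with 8 group terms and 1 factor from RUVr, and glmQLFTest p-values were adjusted by the Benjamini-Hochberg method. On simulated data, 134 of 200 genes changed by a log2FC of 1.5 were recovered and 7 of 17953 unchanged genes were called. Exact permutation tests were two-sided. DESeq2 1.42.0, limma 3.58.1 (voom), other scalings, filters and thresholds, label-number ranges, a replicate block and omitted libraries were alternatives. A sensory ganglion score and the omission of 6 libraries were chosen after seeing the data.

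The members, the lists and the ganglion markers were chosen with earlier results of these data known. All 9 members are named, with those of the list of other complement genes called in at least 1 time-matched comparison (at most 15, by size), and the 3 genes most like each member. From the marker and complement lists, 2 genes are not reported here and were left out of every count, sum and ratio of their lists.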

Additional observations from a re-analysis of the deposited data

Results flagged for a closer look

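The effect of SE (SE against Ctr of the same time) differed between time points, by a test of the difference in the edgeR model, in 9 cases. For C1qa, the effect at 36 h exceeded that at 12 h by a log2FC of 1.65, that at 72 h exceeded that at 36 h by 1.15 and that at 72 h exceeded that at 12 h by 2.80. For C1qc, the same differences were 1.53, 1.09 and 2.61. For C1qb, they were 1.06 for 36 h less 12 h and 1.76 for 72 h less 12 h. For C4b, the effect at 72 h exceeded that at 12 h by 1.74. Groups of 3 libraries were too small for a test of single outlying libraries.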

How the results depend on the processing

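Over 3042 alternative values of the 135 results for single genes, 2961 kept their side of the threshold, and 45 lost and 35 gained a call. The remaining 1 reversed, Cd55 at 36 h, with -0.90 in place of 0.53 without the 6 libraries with high ganglion markers. A change of sign between 2 values that were both not called was counted as kept, as for Cd55 at 12 and 72 h without these libraries. When label-number ranges were entered in place of the RUVr factor, 3 genes were called at 6 h in place of 5, 1 in place of 2 from SE 12 h to SE 24 h, and 0 in place of 2 for the effect at 72 h less that at 36 h. No range holds both SE and Ctr libraries at 72 h, and there the range and the group cannot be told apart. No Ctr library lies in the range of the SE 24 h libraries (label numbers 97 to 99). The same limit applies to their comparison with the controls. From SE 12 h to SE 24 h, the fit limited to the groups compared gave 1, as did the omission of the 6 libraries, and single omissions gave 1 to 3, with 1 when replicate 1 of SE 12 h or of SE 24 h was left out. Between control groups, where edgeR called 0, DESeq2 called 1 and the fit of compared groups 2, and single omissions gave 0 to 3, with 3 after leaving out replicate 1 of Ctr 72 h and 2 after leaving out its replicate 3. At 6 h single omissions gave 5 to 6, and for the effect at 72 h less that at 36 h they gave 2. Of the other complement genes, 8 were called at 72 h, and single omissions there gave 7 to 11. The causes were not tested. C1qb for 36 h less 12 h lost its call in 5 single omissions, with values of 0.98 to 1.07. The call of C3 at 12 h was lost in limma-voom (2.67), and that of Cd55 at 24 h in 15 of 26 alternatives. Same-numbered libraries did not deviate together in every pair, which does not settle whether the replicate number pairs them. A replicate block changed 1 call, that of Cd55 at 24 h (-0.87, adjusted p = 0.0502). Counts of C3 in the controls, at 12 or fewer, limit its fold changes.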
